A study of Gallus gallus with 6 samples.

Results

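Expression of the interleukin 6 cytokine family and its signal carriers was examined in ICP1, a line of immortalized chicken preadipocytes. The genes were picked by name from the authors' deposited table: the ligands CLCF1, LIF and IL6, the receptor chains IL6ST, LIFR, OSMR and CNTFR, the kinase JAK1, the transcription factor STAT3 and the inhibitor SOCS3. Of these 10 names, 9 matched a row among 18495 genes, and CNTFR was not analysed here. The set was put together because CLCF1 had lower values in KLF2 libraries than in EV libraries without overlap. The KLF2 against EV values of these genes, and of CLCF1 above all, are therefore given as a description and not as a test.

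EV libraries came from 3 wells transfected with the empty plasmid pCMV-myc. KLF2 libraries came from 3 wells that received pCMV-myc-KLF2, which carries the Krüppel-like transcription factor KLF2. All 6 wells held cells of the same line and were harvested at 48 h after transfection for poly(A) RNA sequencing. The replicates are wells, as the protocols state, so the errors given here cover differences among wells of this line and not among birds.

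Cytokines of this family bind cell-surface receptor complexes that share gp130, the protein encoded by IL6ST. A ligand brings gp130 together with a partner chain, Janus kinases bound to the receptor tails phosphorylate STAT3, and STAT3 then enters the nucleus and switches on target genes. Among these targets is SOCS3, which binds the receptor complex and shuts the signal down. In mammals LIF and its relatives are known as regulators of stromal and fat cell precursors, and CLCF1 signals through the CNTFR, LIFR and gp130 chains.

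Library depth was even, from 13255169 to 14168807 recovered reads. Libraries of a group did not cluster together. The leading principal component held 67.1% of the variance and placed EV 1 (38.5) and KLF2 3 (27.1) at one end and KLF2 1 (-42.5) at the other. EV 1 and KLF2 3 also had the largest shares of ribosomal RNA reads, 0.350% and 0.131%, against 0.00162% to 0.0215% in the other libraries. KLF2 itself had normalized counts of 1093, 675 and 697 in EV wells 1 to 3 against 1052, 1618 and 2412 in KLF2 wells 1 to 3, so that KLF2 1 lay below EV 1. Of the preadipocyte and fibroblast markers, VIM, COL1A1, DCN and COL1A2 were abundant in every library, while ENG reached at most 5.18 and DLK1 at most 5.18 normalized counts. The summed level of 5 mature adipocyte markers was 49.7 to 55.0 in EV and 22.8 to 41.1 in KLF2 libraries, and that of 3 epithelial markers was 6.90 to 10.2 and 1.02 to 8.60. Both sums were low. Of the 5 mature adipocyte markers, 1 was lower in KLF2 libraries without overlap, against 3.26% of all genes tested. The mean log2 level was lower in KLF2 libraries for 5 of the 5, against 50.9% of all genes tested, with a median log2 fold change of -0.75. In limma 1 of the 5 had an unadjusted p under 0.05, against 2.11% of all genes tested, and 0 had an adjusted p under 0.05. With 5 genes at low counts, nothing is read from these counts. Leukocyte markers summed to 915 to 1281 in EV and 989 to 1264 in KLF2 libraries over 4 genes, most of it from SPI1. Endothelial markers summed to 160 to 197 in EV and 146 to 171 in KLF2 libraries over 5 genes, and muscle markers to 869 to 1179 and 848 to 1308 over 3 genes, most of it from MYH11. Their part in the results below was not tested.

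To compare levels between genes, normalized counts were divided by gene length. On this per kilobase scale the signal carriers and receptors stood above the ligand that led to the choice of genes, LIFR by the least. JAK1, the kinase that starts the signal, had a mean level of 2340 per kilobase over the 6 libraries at the 98.0 percentile of protein-coding genes. OSMR, the receptor chain that binds oncostatin M in mammals, had a mean level of 1967 per kilobase, and the ranges of JAK1 (2063 to 2600) and OSMR (1687 to 2179) overlapped. STAT3 followed at 816 (716 to 920), clear of OSMR above it and of SOCS3 below it. SOCS3 at 476, IL6 at 436 and IL6ST at 394 per kilobase overlapped their neighbours in this order. LIFR, the chain that binds LIF, was at 103 per kilobase (87.8 to 128), below the range of IL6ST. LIF was at 80.0 and overlapped LIFR. CLCF1 had the lowest mean level of the 9, 28.7 per kilobase (9.56 to 45.2), at the 35.3 percentile of protein-coding genes, and its range overlapped that of LIF.

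**Figure D1:**
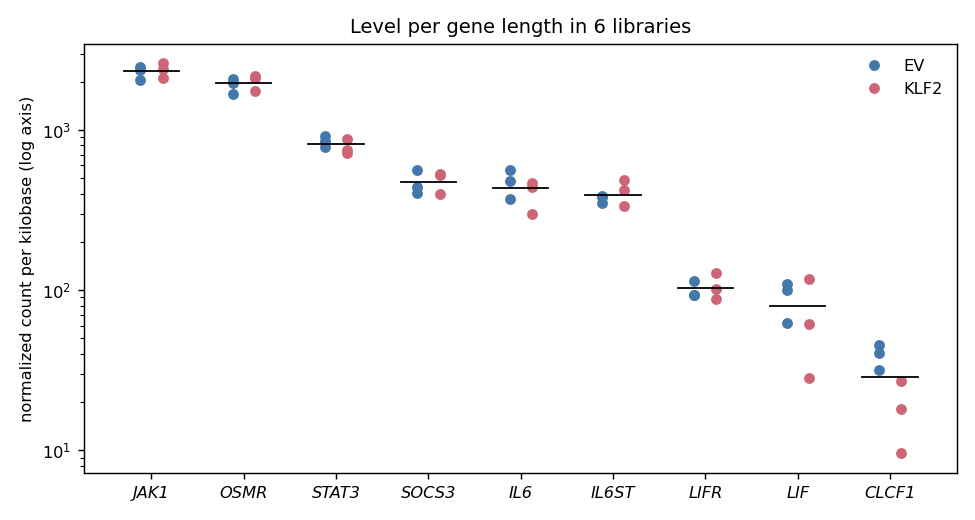
Level of 9 genes in normalized counts per kilobase of gene length (log axis). Each point is a library, EV in blue and KLF2 in red, and the line is the mean of 6 libraries. Means run from 2340 in JAK1 to 28.7 in CLCF1, and the 3 KLF2 points of CLCF1 lie below its 3 EV points.

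CLCF1, or cardiotrophin-like cytokine factor 1, lay lower in each KLF2 library than in any EV library. The gene, ENSGALG00010023466, lies at the start of chromosome 5 (149167 to 157669, minus strand, GRCg7b). Its normalized counts were 110, 77.5 and 99.4 in EV wells 1 to 3 against 23.4, 44.5 and 65.9 in KLF2 wells 1 to 3. The groups did not overlap, and the gap between EV 2 and KLF2 3 was 11.5 normalized counts. Means were 95.8 ± 16.8 in EV and 44.6 ± 21.3 in KLF2 libraries (SD, n = 3), so the KLF2 mean was 46.6% of the EV mean. Fitted in limma on log2(normalized count + 1), this was a log2 fold change of -1.19 (SE 0.37, 95% interval -1.98 to -0.40). In the authors' deposited table CLCF1 had a log2 fold change of -1.10 and the 11th lowest p among all genes, but its adjusted p there was 0.9999. The choice of CLCF1 for separated values favours a low p, so this rank is a description. In bulk RNA, fewer cells that make a transcript and less transcript per cell cannot be told apart.

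The reads behind these values were few. They numbered 112, 76 and 104 in EV wells 1 to 3 against 23, 43 and 69 in KLF2 wells 1 to 3. Exact Poisson 95% intervals, which cover counting error only, were 59.9 to 95.1 reads for EV 2 and 53.7 to 87.3 reads for KLF2 3. These nearest libraries of the opposite groups thus overlapped in counting error. KLF2 1, at 23 reads, had an interval of 14.6 to 34.5 reads, and KLF2 2, at 43 reads, had 31.1 to 57.9 reads. Both were clear of every EV library in counting error. Without KLF2 1 the log2 fold change of CLCF1 was -0.79, without KLF2 3 it was -1.52, and without EV 1 and KLF2 3 together it was -1.41.

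CLCF1 and KLF2 had the same order among the 3 wells that received pCMV-myc-KLF2. KLF2 1 had the lowest KLF2 value and also the lowest CLCF1 value, and KLF2 3 had the highest of both. The leading principal component placed these wells in that order too, with scores of -42.5, -15.6 and 27.1 in KLF2 wells 1 to 3. In the EV wells both genes also shared an order, with EV 1 highest and EV 2 lowest. Of all genes tested, 24.9% were highest in EV 1 among EV libraries and in KLF2 3 among KLF2 libraries. With 3 wells per group this is a description only, and a relation of CLCF1 to KLF2 was not tested.

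Separation without overlap and a lower level in KLF2 libraries was found for 546 of the 16765 genes tested, which is 3.26%. Among the 9 genes described here CLCF1 alone was separated, and since CLCF1 was chosen for it nothing is read from that count. In limma with Benjamini-Hochberg adjustment 0 of the 16765 genes passed 0.05 (0.0%), and 354 (2.11%) had an unadjusted p under 0.05. edgeR and DESeq2 on recovered reads also gave 0 of 11860 and 0 of 18492, with 154 (1.3%) and 173 (0.936%) at an unadjusted p under 0.05. None of the 9 genes thus passed by any of these tools.

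**Figure D2:**
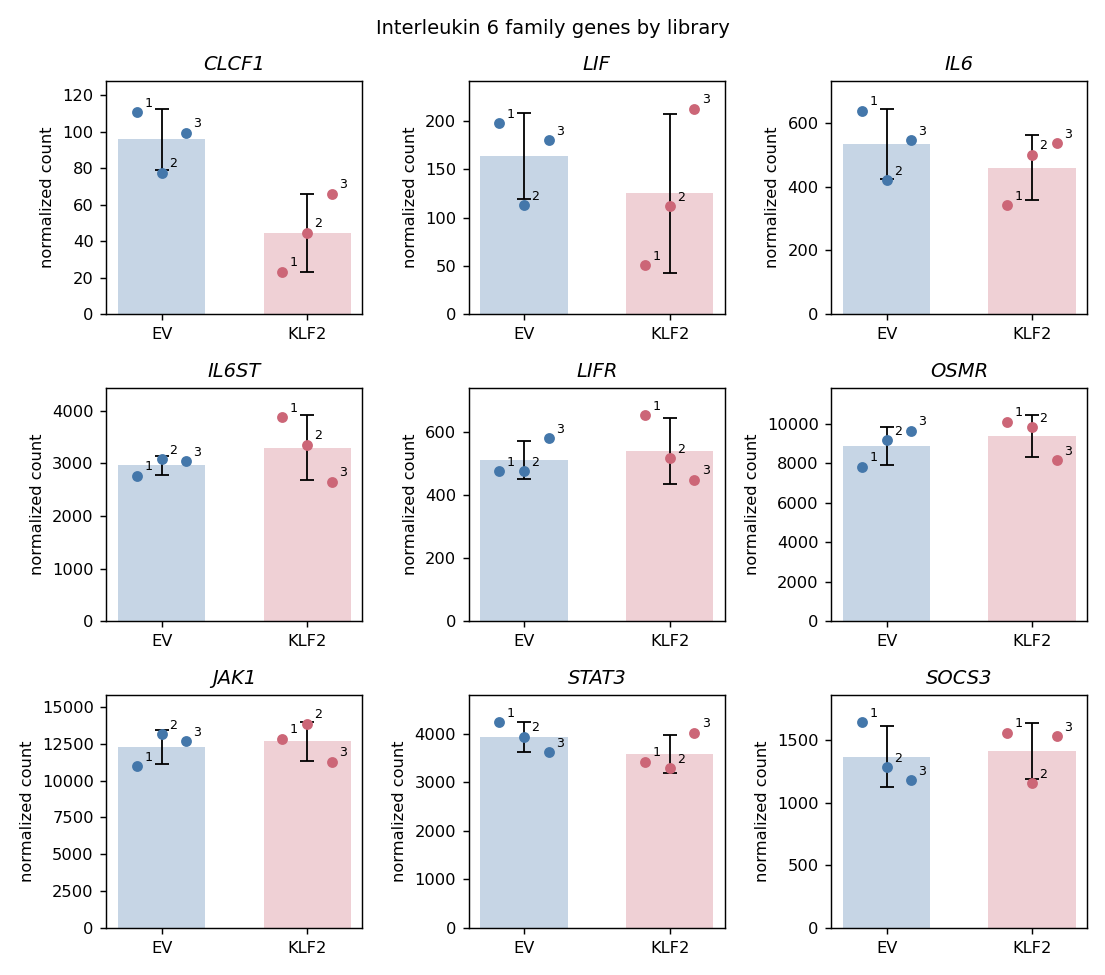
Normalized counts of the 9 genes in each library. Points are libraries with their replicate number, bars are group means and error bars are SD (n = 3 wells). CLCF1 is the gene whose EV points (77.5 to 110) and KLF2 points (23.4 to 65.9) do not overlap.

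LIF, or leukemia inhibitory factor, signals through LIFR and gp130. This gene, ENSGALG00010000225, lies on chromosome 15 (10865585 to 10871572). It had normalized counts of 198, 113 and 181 in EV wells 1 to 3 against 50.8, 112 and 213 in KLF2 wells 1 to 3. KLF2 3 held the highest value of all libraries and KLF2 1 the lowest, so the groups overlapped fully. LIF thus had a log2 fold change of -0.57 (SE 0.48, 95% interval -1.68 to 0.53). This value rested on KLF2 1: without that library it was -0.05, and without KLF2 3 it was -1.07.

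IL6, the founding cytokine of the family and an inflammatory signal made by many stromal cells, was the ligand with the highest level per kilobase. Its normalized counts were 638, 420 and 546 in EV wells 1 to 3 against 342, 499 and 535 in KLF2 wells 1 to 3. EV 2 lay below KLF2 2 and KLF2 3, and the lowest value was again in KLF2 1. For IL6 the fold change was -0.23 on the log2 scale (SE 0.21, 95% interval -0.69 to 0.24). It was -0.03 without KLF2 1, -0.09 without EV 1 and -0.39 without EV 2. The span of IL6 on chromosome 2 (30771375 to 30774070) shares 157 bases with TOMM7 on the opposite strand, and reads from that stretch cannot be assigned to a strand here.

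CNTF was the other family ligand analysed. This neurotrophic cytokine had normalized counts of 407, 206 and 207 in EV wells 1 to 3 against 130, 194 and 290.5 in KLF2 wells 1 to 3. EV 1 was highest and KLF2 1 lowest, and KLF2 3 lay above EV 2 and EV 3. Means were 273 ± 116 in EV and 205 ± 80.8 in KLF2 libraries (SD, n = 3), a log2 fold change of -0.41 (SE 0.34). The span of CNTF shares 2931 bases with ZFP91 on the same strand.

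The gp130 chain and its partners lay close together between the groups. IL6ST, which encodes gp130, had normalized counts of 2762, 3083 and 3038 in EV wells 1 to 3 against 3880, 3354 and 2648 in KLF2 wells 1 to 3. KLF2 3 was the lowest library of all and KLF2 1 the highest. IL6ST had a log2 fold change of 0.14 (SE 0.16, 95% interval -0.20 to 0.48), which was 0.01 without KLF2 1 and 0.29 without KLF2 3.

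LIFR had normalized counts of 475, 476 and 581 in EV wells 1 to 3 against 653, 517 and 449 in KLF2 wells 1 to 3. OSMR had 7836, 9179 and 9661 in EV wells 1 to 3 against 10119, 9848 and 8152 in KLF2 wells 1 to 3. In both genes KLF2 1 was the highest library, and the lowest was KLF2 3 for LIFR and EV 1 for OSMR. Log2 fold changes were 0.07 (SE 0.18) for LIFR and 0.08 (SE 0.15) for OSMR. The sign of LIFR turned without KLF2 1 (-0.08) and that of OSMR without EV 1 (-0.01).

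The 3 receptor chains all lie on chromosome Z. LIFR (12557510 to 12607545, minus strand) and OSMR (12700944 to 12733210, plus strand) point away from each other across 93398 bases that hold 1 other gene of the table. IL6ST lies further along the same chromosome (17565726 to 17603286). The mean level per kilobase was 1967 for OSMR and 103 for LIFR.

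Among other receptors, IL6R, the chain that gives gp130 its specificity for IL6, had normalized counts of 219, 121 and 112 in EV wells 1 to 3 against 61.9, 91.1 and 182 in KLF2 wells 1 to 3. Its groups overlapped, with a log2 fold change of -0.51 (SE 0.40). SORT1, a sorting receptor that binds several cytokines of the family in mammals, had means of 997 ± 214 in EV and 738 ± 313 in KLF2 libraries (SD, n = 3) and a log2 fold change of -0.50 (SE 0.29). Its relative SORL1 had a log2 fold change of -0.08. LEPR, the leptin receptor and a relative of gp130, was near the floor, with means of 17.2 in EV and 16.7 in KLF2 libraries, and IL12RB2 had means of 24.3 and 22.6. The mean log2 level was lower in KLF2 libraries for 5 of 5 of these receptors, against 50.9% of all genes tested. In limma 0 of the 5 had an unadjusted p under 0.05, against 2.11% of all genes tested, and with 5 genes nothing is read from that count.

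JAK1 had normalized counts of 10996, 13153 and 12685 in EV wells 1 to 3 against 12859, 13859 and 11272 in KLF2 wells 1 to 3. The lowest libraries were EV 1 and KLF2 3, and JAK1 had a log2 fold change of 0.04 (SE 0.14, 95% interval -0.26 to 0.35), with the sign turning in 3 of 16 alternatives. JAK2, a sister kinase on chromosome Z, had a log2 fold change of 0.03 (SE 0.17). Of the proteins that link the receptor to the MAPK pathway, the phosphatase PTPN11 had 0.17 (SE 0.15), the adaptor GRB2 0.05 (SE 0.15) and the adaptor SHC1 -0.30 (SE 0.29). SHC1 had 2326 normalized counts in EV 1 and 936 in KLF2 1, with the other libraries from 1252 to 1815.

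STAT3, ENSGALG00010026098 on chromosome 27 (4895071 to 4910479), had normalized counts of 4240, 3943 and 3623 in EV wells 1 to 3 against 3430, 3298 and 4031 in KLF2 wells 1 to 3. EV 1 was highest and KLF2 2 lowest, and KLF2 3 lay above EV 2 and EV 3. This gave a log2 fold change of -0.14 (SE 0.14, 95% interval -0.44 to 0.17). STAT5A lies beside it, 7835 bases away with no gene of the table in between, and had a log2 fold change of -0.23 (SE 0.19). STAT2, which carries interferon signals, and STAT6, which carries interleukin 4 signals, had -0.52 (SE 0.33) and -0.30 (SE 0.23). STAT4 was near the floor, with at most 12.2 normalized counts in a library. Of the 4 other STAT genes analysed, 3 had a lower and 1 a higher mean log2 level in KLF2 libraries. Over all genes tested 50.9% were lower. In limma 0 of the 4 had an unadjusted p under 0.05, against 2.11% of all genes tested, and nothing is read from these counts.

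SOCS3 is the feedback inhibitor of gp130 signalling. This gene, ENSGALG00010029295 on chromosome 18 (10472719 to 10475867), had normalized counts of 1645, 1285 and 1180 in EV wells 1 to 3 against 1561, 1159 and 1533 in KLF2 wells 1 to 3. High and low libraries were mixed between the groups, with EV 1 highest and KLF2 2 lowest. SOCS3 had a log2 fold change of 0.05 (SE 0.17, 95% interval -0.32 to 0.42). Its sign turned without EV 3, KLF2 1 or KLF2 3 (-0.05, -0.03 and -0.01).

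Of 14 other inhibitors, 8 had a lower and 6 a higher mean log2 level in KLF2 libraries, with a median log2 fold change of -0.10. Over all genes tested 50.9% were lower and the median was -0.01. Among the 14, 1 was separated and lower and 1 separated and higher, against 3.26% and 3.39% of all genes tested. In limma 0 of the 14 had an unadjusted p under 0.05, and nothing is read from these counts. CISH, a SOCS family gene that STAT5 induces in mammals, was separated and lower, with 1981, 1751 and 1578 normalized counts in EV wells 1 to 3 against 1384, 1394 and 1560 in KLF2 wells 1 to 3 (log2 fold change -0.29, SE 0.14). PTPN2, a phosphatase that acts on JAK1 and STAT proteins, was separated and higher, with 3080, 3442 and 3549 in EV wells 1 to 3 against 3735, 3881 and 3622 in KLF2 wells 1 to 3 (log2 fold change 0.16, SE 0.13). Its span shares 9580 bases with PSMG2 on the opposite strand. PTPN1, a phosphatase of JAK2, and PIAS2, a SUMO ligase of the family that binds STAT proteins, were not separated, with log2 fold changes of 0.05 (SE 0.15) and 0.08 (SE 0.17).

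Genes known to respond to STAT3 in mammals had a lower mean log2 level in KLF2 libraries for 11 of 15 and a higher one for 4. Their median log2 fold change was -0.22, against -0.01 over all genes tested, of which 50.9% were lower. In limma 0 of the 15 had an unadjusted p under 0.05, against 2.11% of all genes tested. Of the 15, 9 were highest in EV 1 among EV libraries and in KLF2 3 among KLF2 libraries, against 24.9% of all genes. Nothing is read from these counts. CEBPB and CEBPD, transcription factors of early fat cell differentiation, spread widely within both groups. CEBPB had 7380, 3409 and 3733 normalized counts in EV wells 1 to 3 against 2138, 3076 and 6434 in KLF2 wells 1 to 3. CEBPD had 4652, 2040 and 2166 in EV wells 1 to 3 against 1053, 1975 and 3557 in KLF2 wells 1 to 3. EV 1 and KLF2 3 were high in both genes and KLF2 1 was low, and log2 fold changes were -0.38 (SE 0.50) and -0.49 (SE 0.55). MCL1, a survival factor, had a log2 fold change of -0.15 (SE 0.15), and HIF1A, the oxygen-responsive factor, had 0.08 (SE 0.18).

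Over all 46 pathway genes beside the 9, the mean log2 level was lower in KLF2 libraries for 32 and higher for 14, with a median log2 fold change of -0.13. Over all 16765 genes tested 50.9% were lower and the median was -0.01. The median log2 deviation of the pathway genes was 0.17, 0.0039 and 0.0032 in EV wells 1 to 3 against -0.19, -0.11 and 0.12 in KLF2 wells 1 to 3, so KLF2 3 lay above EV 2 and EV 3. The median log2 fold change was -0.03 without KLF2 1 and -0.05 without EV 1. In limma 0 of the 46 passed the adjusted threshold and 0 had an unadjusted p under 0.05, against 2.11% of all genes tested. Of the 46, CISH was separated and lower and PTPN2 was separated and higher, against 3.26% and 3.39% of all genes tested.

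**Figure D3:**
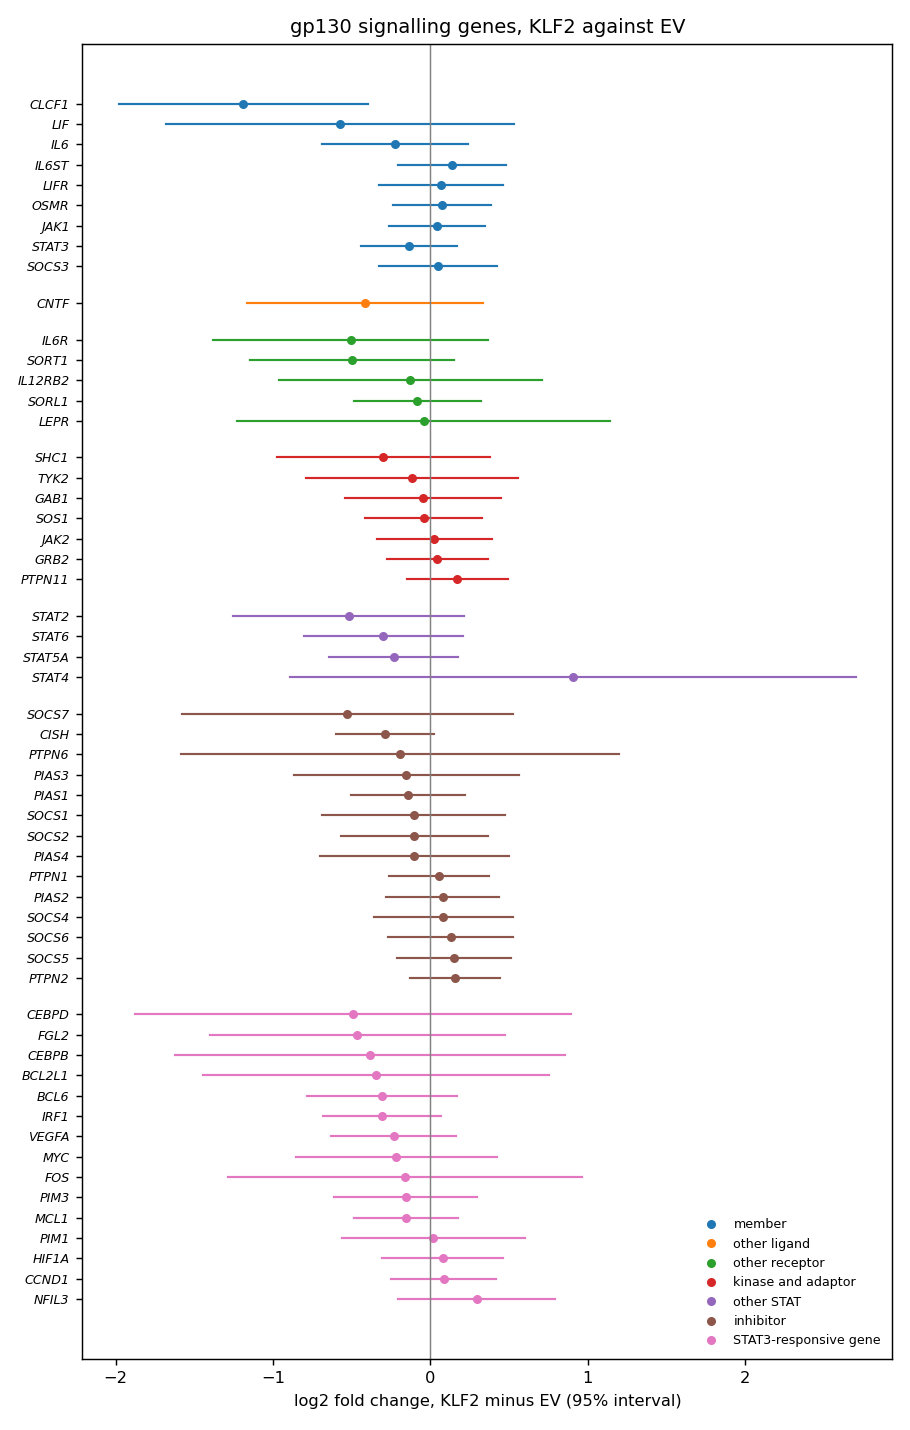
Log2 fold change of KLF2 minus EV with its 95% interval in limma for the 9 genes and 46 pathway genes, coloured by role. The interval of CLCF1 runs from -1.98 to -0.40, and those of the other 54 genes include 0. CLCF1 was chosen for its lower values in this contrast, so its interval is a description. Its adjusted p in limma was 0.96.

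Within the groups, the 9 genes did not all follow the libraries in the same way. CLCF1, LIF, IL6 and STAT3 (4 of 9) were highest in EV 1 among EV libraries and highest in KLF2 3 among KLF2 libraries. IL6ST, LIFR, OSMR and JAK1 (4 of 9) were lowest in both of these libraries, LIFR by a margin of under 1 normalized count in EV 1. SOCS3 followed neither order. Over all genes tested, 24.9% had the former order and 24.2% the latter. Among the pathway genes 21 of 46 had the former order, CNTF, IL6R, SORT1, CEBPB and CEBPD among them, and 14 of 46 the latter, with JAK2, PTPN11 and HIF1A. Nothing is read from these counts. EV 1 and KLF2 3 also led in ribosomal RNA reads and in scores on the leading component, and the part of this in the gene levels was not tested.

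**Figure D4:**
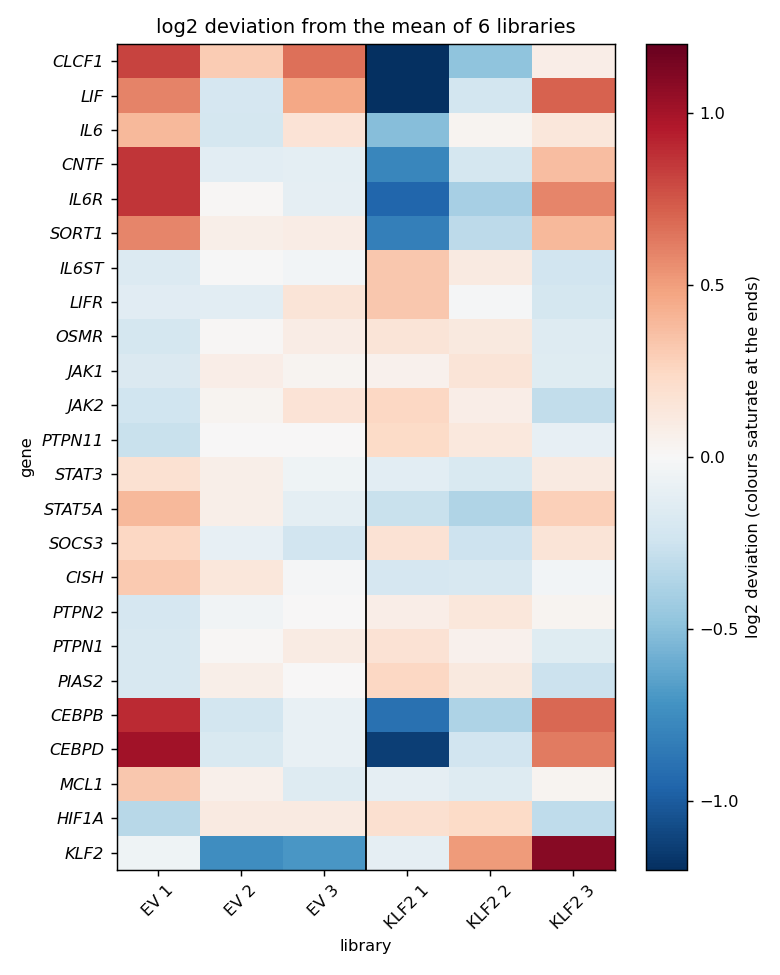
Log2 deviation of each gene from its own mean over 6 libraries, red above and blue below. The vertical line divides EV from KLF2 libraries. CLCF1, LIF, CNTF, IL6R, SORT1, CEBPB and CEBPD lie lowest in KLF2 1 and above their own mean in EV 1 and KLF2 3, while IL6ST, LIFR, OSMR, JAK1 and JAK2 lie below their mean in EV 1 and KLF2 3.

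Among the 9 genes the spread between libraries was widest in CLCF1 and LIF. The highest library exceeded the lowest 4.73-fold for CLCF1, 4.20-fold for LIF and 1.86-fold for IL6. This ratio was 1.47 for IL6ST, 1.45 for LIFR, 1.29 for OSMR, 1.26 for JAK1, 1.29 for STAT3 and 1.42 for SOCS3. CLCF1 and LIF also had the fewest reads, so that relative counting error is larger in them. Within the KLF2 group, KLF2 1 was the lowest and KLF2 3 the highest library for both genes. The cause of the spread was not tested. Exact Poisson 95% intervals of these 2 libraries, the furthest apart in the group, did not overlap. These were 14.6 to 34.5 and 53.7 to 87.3 reads for CLCF1, and 37.1 to 65.9 and 195 to 254 reads for LIF. Wide spreads were also found outside the ligands, with ratios of 4.17 for LEPR, 3.53 for IL6R, 2.66 for SORT1, 3.12 for STAT2 and 2.48 for SHC1, and a difference by role was not tested.

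The genes around CLCF1 were compared with it because it lies in a crowded stretch of chromosome 5. CLCF1 shares 32 bases with ENSGALG00010023397 on the same strand, and that neighbour had 73.0, 40.8 and 25.8 normalized counts in EV wells 1 to 3 against 22.3, 32.1 and 58.3 in KLF2 wells 1 to 3, so its groups overlapped. Of 24 genes within 100000 bases of CLCF1, 0 were separated between the groups, where 3.26% of all genes tested were separated and lower and 3.39% separated and higher, and nothing is read from the 0. Of the 23 that were tested, 20 had a lower mean log2 level in KLF2 libraries and 3 a higher one, with a median log2 fold change of -0.24. Over all genes tested 50.9% were lower and the median was -0.01. Whether the stretch as a whole differed was not tested. RAD9A, a DNA damage checkpoint gene that lies next on the other side, had a log2 fold change of -0.26 (SE 0.38). POLD4, a small subunit of DNA polymerase delta, had the lowest of the 23, -0.94 (SE 0.62), and the highest was 1.19.

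Genes with a profile close to that of CLCF1 were ranked by the root mean square difference of log2 deviations over the 6 libraries, among 9314 genes with a symbol and a mean of at least 20. The closest were MAP3K12 (0.21), TRPM2 (0.21), SYNJ2BP (0.23), ZNF687 (0.23) and DAZAP2 (0.24). MAP3K12 had 108, 69.3 and 72.6 normalized counts in EV wells 1 to 3 against 27.4, 37.3 and 62.1 in KLF2 wells 1 to 3. These 5 genes lie on chromosomes 34, 9, 5, 25 and 34. LIF ranked 73 by this measure (0.37) and IL6 ranked 838 (0.54), while the receptor chains ranked from 6429 to 7817. Since this ranking used the same contrast that chose CLCF1, it is a description.

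**Figure D5:**
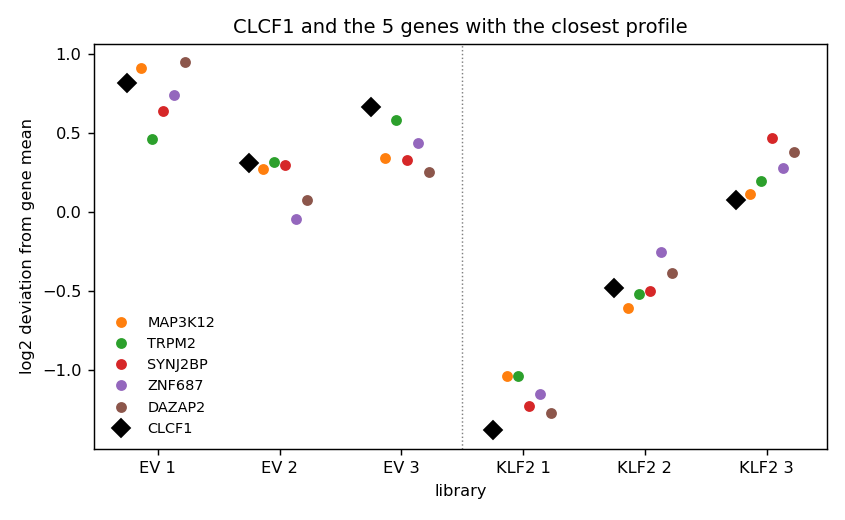
Log2 deviation of CLCF1 (black diamonds) and of the 5 genes closest to it (coloured points) from each gene's mean, by library. All 6 genes lie lowest in KLF2 1, and their KLF2 3 points lie above their KLF2 2 points.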

How the data were processed

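RNA from 3 EV and 3 KLF2 wells was sequenced. The submitters' processing notes name the build GRCg7b and the tools featureCounts 1.5.0-p3, StringTie 1.3.3b, HISAT2 2.0.5 and fastp. The sources used here do not state how the counts were normalized and tested. The authors deposited a signal that is a normalized count for each gene in each library. Per the file headers, their table also holds their log2 fold change and their p-values, raw and adjusted. Dividing by the smallest nonzero value of a library gave whole reads for 100% of values (tolerance 1e-06). No step that marks strand is described.

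limma 3.58.1 in R 4.3.3 was run with a mean-variance trend and robust moderation on log2(normalized count + 1) for 16765 genes whose mean reached 1 in EV or in KLF2 libraries. Tests were two-sided, with p-values adjusted by Benjamini-Hochberg over all genes and a threshold of 0.05. The recovered reads were tested with edgeR 4.0.16 and with DESeq2 1.42.0. DESeq2 gave the authors' log2 fold changes to the digits shown for CLCF1 (-1.09985) and KLF2 (1.04389). It is therefore not a separate check on their values. No pair of libraries was a copy (chi-square per gene at least 6.58). The procedure was tested on simulated counts. Over 3 runs it recovered 16.7% of 1.5-fold, 60% of 2-fold, 96% of 4-fold and 100% of 8-fold changes. These changes were placed only in genes with a mean of at least 20, so recovery below that level was not measured. It also called 24 unchanged genes over these runs. The simulated counts held no pattern shared between genes of a library.

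Members and lists were chosen with earlier results of these data known. Named genes are the members, KLF2, the other family ligands and receptors, up to 4 genes per list with the highest level per kilobase, overlapping neighbours and the 5 genes closest to CLCF1. ENG, DLK1, SPI1, MYH11, RAD9A and POLD4 were named after their values were seen. Of 62 pathway names, 46 were matched and the other 16 were not analysed here. Some other pathway genes are not reported here.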

Additional observations from a re-analysis of the deposited data

How the results depend on the processing

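CLCF1 was lower in KLF2 libraries under all 16 alternatives (normalization, test, filter, pseudocount, replicate block, leaving out libraries). Leaving out single libraries gave it log2 fold changes of -1.52 to -0.79. Since CLCF1 was chosen for separated groups, leaving out libraries could not turn its sign. The filters and the replicate block left its estimate unchanged, so nothing is read from the 16. The 9 genes had 0 past the threshold under each of the 16 alternatives. The count over all genes was 0, except for 4 without EV 1 and KLF2 3, with KLF2 among them (adjusted p 0.018 in limma). That setting raised the count at an unadjusted p under 0.05 from 354 of 16765 to 1712 of 17061 genes tested. Leaving out KLF2 3 alone raised it to 2081 of 16996. Among the 9 genes the same count was 1 in the main fit, 3 without EV 1 and KLF2 3 and 2 without KLF2 3. CLCF1 was among them each time, and nothing is read from these counts. The cause was not tested. The pathway median was -0.20 to -0.03 over the same omissions. The sign of JAK1 turned under quantile normalization (-0.020). Leaving out single libraries gave -0.034 to 0.12 for JAK1, -0.013 to 0.17 for OSMR, -0.078 to 0.19 for LIFR and -0.050 to 0.19 for SOCS3. A replicate block left 0 genes past the threshold and CLCF1 at -1.19, and 228 genes had an unadjusted p under 0.05. The labels state no pairing, and the main fit did not treat the numbers as pairs. Same-numbered libraries had residual correlations of -0.60, 0.14 and -0.51, and EV 1 with KLF2 3 had 0.72. With EV 1 and KLF2 3 at the same end of the leading component, these values cannot decide whether wells were paired. Low counts limit CLCF1, LIF and LEPR.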
